A study of Mus musculus with 21 samples.

Results

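The TIF1 (transcriptional intermediary factor 1) genes Trim66, Trim24, Trim28 and Trim33 were followed through motor neuron differentiation of mouse embryonic stem cells. They are 4 of the 55400 genes in the count table and were chosen because Trim66 rose under the inhibitor GSKJ4 at D5. The values that chose them were the D5 levels of Trim66, which are therefore described below without a test. The question was whether the other members of the family moved with it. RNA-seq of poly-A RNA covered 21 libraries in 7 groups of 3 labelled biological replicates. The study describes the replicates of a stage as biologically independent, without saying at which step they were separated, and the p-values measure the spread between these libraries. All groups were wild-type C57BL/6 cells that had been kept on embryonic fibroblast feeders, formed into embryoid bodies, and given 1 μM retinoic acid and 0.5 μM of the Sonic hedgehog agonist SAG, with 5 μM of the Notch pathway inhibitor DAPT given at D4 and again at D5. By the study's methods, the DAPT at D5 was given in the base medium, which lacks retinoic acid and SAG. The D6 groups thus spent their last day without these 2 factors, and stage and this medium change cannot be told apart at D6. Whether the D4 cells were collected before DAPT was given is not stated in the sources used here. The untreated groups were collected at D4, at D4H8 (8 hours after D4), at D5 and at D6. The groups D4H8_GSKJ4, D5_GSKJ4 and D6_GSKJ4 also received GSKJ4, an inhibitor of the H3K27 demethylases of the Kdm6 family, from 1 day before collection. The concentration of GSKJ4 in these cultures is not given in the sources used here.

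TIF1 proteins carry a RING, B-box and coiled-coil module at their N-terminal side or a part of it, and a PHD finger next to a bromodomain that reads histone tails at their C-terminal side. Trim28 (also KAP1) is the corepressor that KRAB zinc finger proteins bring to DNA, where it recruits the H3K9 methyltransferase Setdb1 and HP1 proteins. Trim24 is a coregulator of nuclear receptors such as the retinoic acid receptors, Trim33 binds Smad proteins of the TGF-beta pathway, and Trim66 is best known from the testis, where it is found with HP1.

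In the annotation of the mouse genome (GRCm38), Trim66 (ENSMUSG00000031026) lies on the minus strand of chromosome 7 at chr7:109449006-109508134. Trim28 (ENSMUSG00000005566) is on the plus strand of the same chromosome at chr7:12999114-13031035. Trim24 (ENSMUSG00000029833) is at chr6:37870811-37966296 and Trim33 (ENSMUSG00000033014) at chr3:103279293-103358775, both on the plus strand. RefSeq promoters (GRCm38.p6, 250 bases before to 50 after the start) were matched for 3 of the 4 genes, and Trim33 had none. They are shown because the genes differ in level by orders of magnitude and the windows differ in CpG content. The CG dinucleotides are in capitals. The windows are chr7:109508085-109508384 for Trim66 (minus strand), chr7:13023902-13024201 for Trim28 and the first of the Trim24 starts, chr6:37870561-37870860 (both plus strand).
Trim66: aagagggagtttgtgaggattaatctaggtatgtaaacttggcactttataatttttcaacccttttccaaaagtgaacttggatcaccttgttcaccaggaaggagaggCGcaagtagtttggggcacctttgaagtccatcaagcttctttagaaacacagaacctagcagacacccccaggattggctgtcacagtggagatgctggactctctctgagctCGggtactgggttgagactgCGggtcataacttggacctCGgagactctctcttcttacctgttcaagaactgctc
Trim28: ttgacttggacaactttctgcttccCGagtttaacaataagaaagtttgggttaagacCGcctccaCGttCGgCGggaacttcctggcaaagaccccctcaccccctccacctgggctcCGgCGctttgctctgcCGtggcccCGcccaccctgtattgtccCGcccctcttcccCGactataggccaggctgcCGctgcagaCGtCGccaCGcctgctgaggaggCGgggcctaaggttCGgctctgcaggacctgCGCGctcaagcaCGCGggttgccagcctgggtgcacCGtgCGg
Trim24: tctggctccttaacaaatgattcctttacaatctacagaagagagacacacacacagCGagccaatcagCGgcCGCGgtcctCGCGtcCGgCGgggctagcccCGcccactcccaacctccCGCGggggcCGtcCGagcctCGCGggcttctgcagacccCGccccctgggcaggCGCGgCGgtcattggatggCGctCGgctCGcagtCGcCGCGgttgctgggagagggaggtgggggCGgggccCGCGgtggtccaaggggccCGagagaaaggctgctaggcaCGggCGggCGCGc
The window of Trim66 held 4 CG dinucleotides, a number that 38.0% of the 32851 mouse promoters of this length did not exceed. The windows of Trim28 and Trim24 held 23 and 33, the latter a number not exceeded by 92.3% of promoters, and the median over all promoters was 7. A later Trim24 start in the same table had 1. These counts describe the windows and draw nothing about how the genes are controlled.

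Depth ranged from 14982115 to 34383842 counts per library with a median of 16238435. The library D5_GSKJ4 replicate 2 listed 39381 genes at 0, against 29339 to 32805 in the other libraries, and the values of Trim66 without it are given below. The labelled cell type was checked by 8 motor neuron markers (Isl1, Isl2, Mnx1, Lhx3, Chat, Slc18a3, Slc5a7 and Ret), none of which was at 0 in any group. Their summed level rose from 51.1 to 86.2 counts scaled to library size (CPM) in the D4 libraries to 1418 to 1788 in the D6 libraries.

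Trim66 was nearly silent in untreated cells at the early stages and was the lowest of the family in every library. The 3 untreated D4 libraries held 6, 2 and 5 counts of it, the D4H8 libraries 14, 8 and 13, and the D5 libraries 6, 4 and 8. At D6 they held 33, 46 and 20 counts. Every untreated D6 library was thus above every earlier untreated library. Against D5 alone, 23.5% of genes had every D6 library higher, and against D4 alone 34.4%. Under GSKJ4 the counts were 85, 77 and 38 at D4H8, 254, 308 and 314 at D5, and 107, 27 and 69 at D6. The treated D5 libraries were the highest of all 21. None of the treated libraries at D4H8 or D5 overlapped the untreated ones of its stage. Every treated library was higher for 16.1% of genes at D4H8 and for 5.19% at D5.

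**Figure D1:**
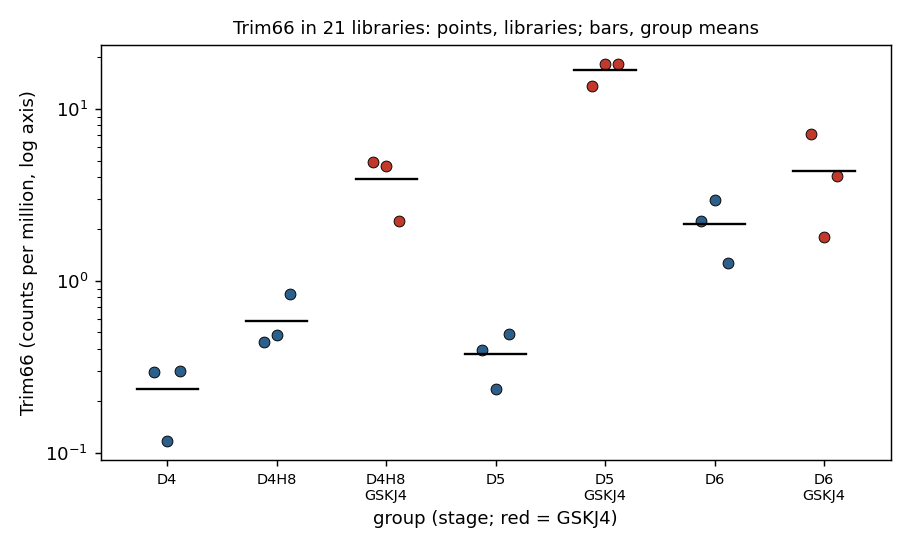
Trim66 level in CPM (log axis) in each of the 21 libraries by group, with untreated libraries in blue, GSKJ4 libraries in red and group means as bars. The treated D5 libraries lie between 13.5 and 18.3 CPM and the untreated D5 libraries between 0.235 and 0.492 CPM, while the treated and untreated D6 libraries overlap.

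The order of the group means was the same in FPKM and in CPM. In CPM it ran from D5_GSKJ4 at 16.7 ± 2.74 (SD, n = 3) through D6_GSKJ4 at 4.33 ± 2.68, D4H8_GSKJ4 at 3.91 ± 1.48 and D6 at 2.15 ± 0.846 to D4H8 at 0.586 ± 0.217, D5 at 0.375 ± 0.130 and D4 at 0.236 ± 0.104. D5_GSKJ4 did not overlap the next group, and D6 did not overlap D4H8. The other neighbours in this order overlapped. In the authors' FPKM, which divide by gene length and allow a comparison between genes, the D5_GSKJ4 libraries had 1.33, 1.94 and 1.93 FPKM of Trim66 and the untreated D5 libraries 0.04, 0.02 and 0.05 FPKM. Even the highest group mean, 1.73 ± 0.349 FPKM, stayed below the lowest library value of any relative, 12.9 FPKM for Trim33. In bulk RNA, fewer cells that express a gene and less RNA per cell cannot be told apart, which holds for every level given here.

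Trim28 was the most abundant member, with 105 to 206 FPKM over the 21 libraries. Trim24 had 13.8 to 24.2 FPKM and Trim33 12.9 to 21.8 FPKM. Of the summed FPKM of the 4 genes, Trim28 took between 78.3% (D6_GSKJ4) and 85.2% (D4H8) as group means. Trim66 took 0.0130% ± 0.00782 (SD, n = 3) at D4 and 1.07% ± 0.0908 in D5_GSKJ4. The highest library exceeded the lowest by 158-fold for Trim66 in CPM, but by 1.83-fold for Trim24, 1.89-fold for Trim28 and 1.77-fold for Trim33. The relatives thus varied little across stages and treatment.

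At D4H8, Trim66 was 6.84-fold higher with GSKJ4 (log2 fold change 2.77 ± 0.48 SE, 95% interval 1.69 to 3.86, edgeR quasi-likelihood test, adjusted p = 0.0240). All 3 treated libraries were above all 3 untreated ones, as for 16.1% of genes. The genes were chosen for the rise of Trim66 under GSKJ4, with earlier results of these data known. This test is thus not taken as independent of that choice, and its p is read as a description. The test called 343 of 16269 genes higher at this stage (2.11%), and 644 (3.96%) in either direction. Counting Trim66 itself, 7 genes had a log2 fold change at least as large. It passed the filter on low counts only through the treated group, and was also called in a fit with no filter. The adjusted p rose to 0.135, 0.117 and 0.0712 without untreated D4H8 replicates 1, 2 and 3 in turn, with log2 fold changes of 2.55, 2.67 and 3.11, while the call held without any of the treated libraries.

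The same treated D4H8 libraries had lower levels of motor neuron and progenitor markers. At this stage 1.85% of all genes were called lower. Of the 7 motor neuron markers tested, 4 were called lower and none higher, and their summed level was 62.4 to 113 CPM against 232 to 275 CPM untreated. Of 6 progenitor markers, 2 were called lower, with sums of 236 to 410 CPM against 707 to 1038 CPM. None of the 7 tested feeder fibroblast markers and none of the 7 pluripotent cell markers was called in either direction by edgeR, with 2 and 0 at an unadjusted p under 0.05, where 25.1% of all genes were. Their sums were 94.6 to 222 CPM treated and 63.3 to 118 CPM untreated for the feeder list, and 132 to 297 CPM and 61.4 to 262 CPM for the pluripotent list. No motor neuron, progenitor, feeder or pluripotent marker was at 0. Their part in the rise of Trim66 was not tested.

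At D5, the contrast that chose the genes, Trim66 went from 0.375 ± 0.130 to 16.7 ± 2.74 CPM, a 44.1-fold difference (log2 5.46). No other tested gene had a log2 fold change as large. It was also the 1 gene that edgeR called at this stage (0.00613% of 16309), and nothing is read from this since the gene was chosen on it. It passed the filter only through the treated group, as at D4H8. The log2 fold change lay between 5.21 and 5.71 when each library was left out in turn, D5_GSKJ4 replicate 2 included. The motor neuron markers summed to 503 to 661 CPM in the treated and 883 to 995 CPM in the untreated libraries, with 0 of 8 called by edgeR and 6 lower at an unadjusted p under 0.05, a level that 4.7% of all genes reached. What part this had was not tested.

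At D6 the difference was 2.03-fold (log2 1.02 ± 0.53 SE, 95% interval -0.22 to 2.26) and was not called (edgeR, unadjusted p = 0.0928, adjusted p = 1.00). Treated replicate 2, with 27 counts, fell inside the untreated range of 20 to 46, while treated replicates 1 and 3, with 107 and 69, were above it. Within replicate numbers, Trim66 was lower with GSKJ4 in replicate 2, at 27 against 46 counts (1.80 against 2.95 CPM). It was higher in replicate 1, at 107 against 33 counts, and in replicate 3, at 69 against 20. The interval reached 4.78-fold at its upper end, and so overlapped that of D4H8, which began at 3.22-fold. No gene was called at this stage in the fit without a block (0 of 16301, 0%), with 222 genes (1.36%) at an unadjusted p under 0.05. The motor neuron markers summed to 1243 to 1685 CPM treated and 1418 to 1788 CPM untreated, with 0 of 8 called. Without D6_GSKJ4 replicate 1 the log2 fold change fell to 0.48. The D6 replicate numbers paired the libraries, and with the replicate number as a block 257 genes were called, Trim66 not among them (log2 fold change 0.94, edgeR, adjusted p = 0.286).

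The effect on Trim66 was smaller at D6 than at D4H8 by a log2 difference of -1.75 ± 0.68 (SE, 95% interval -3.17 to -0.33), which did not pass after adjustment (edgeR interaction, unadjusted p = 0.0183, adjusted p = 0.256). In that test 0.735% of 18103 genes were called. As a description, the effect at D5 minus that at D4H8 was 2.67 on the log2 scale, and the effect at D6 minus that at D5 was -4.42.

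None of the relatives was called under GSKJ4 at any stage, and their treated and untreated libraries overlapped in CPM in all 9 comparisons. In FPKM they did not overlap in 2 of them, Trim24 at D5 and Trim33 at D6, where every treated library was higher. The share of all genes with this pattern was computed in CPM only, and was 5.19% at D5 and 2.32% at D6. Trim28 had 166, 179 and 190 FPKM in the untreated D4H8 libraries and 197, 142 and 183 FPKM in the treated ones. At D5 it had 162, 125 and 146 FPKM untreated and 105, 139 and 141 FPKM treated. At D6 it had 111, 132 and 134 FPKM untreated and 108, 132 and 136 FPKM treated. The treated libraries lay partly above and partly below the untreated ones at D4H8, and on both sides of them by a few FPKM at D6. The log2 fold changes of Trim28 were -0.08 ± 0.17 (SE) at D4H8, -0.22 ± 0.16 at D5 and -0.01 ± 0.11 at D6.

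Trim24, the nuclear receptor coregulator, had 15.6, 16.8 and 17.8 FPKM in the untreated D4H8 libraries and 17.7, 24.2 and 19.6 FPKM in the treated ones. At D5 it had 13.8, 14.0 and 15.2 FPKM untreated and 15.9, 15.7 and 17.8 FPKM treated. Its log2 fold changes were 0.27 ± 0.20 (SE) at D4H8, 0.16 ± 0.13 at D5 and -0.06 ± 0.10 at D6. Trim33, the Smad partner, had 13.9, 14.2 and 14.1 FPKM untreated at D4H8 and 13.5, 21.8 and 14.0 FPKM treated. At D6 it had 15.4, 14.8 and 15.7 FPKM untreated and 16.8, 15.8 and 16.3 FPKM treated. Its log2 fold changes were 0.21 ± 0.24 (SE) at D4H8, 0.05 ± 0.13 at D5 and 0.08 ± 0.09 at D6. The highest value of Trim24 and of Trim33 over all libraries came from D4H8_GSKJ4 replicate 2. Without that library the D4H8 log2 fold change was 0.06 for Trim24 and -0.13 for Trim33, and neither was called.

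**Figure D2:**
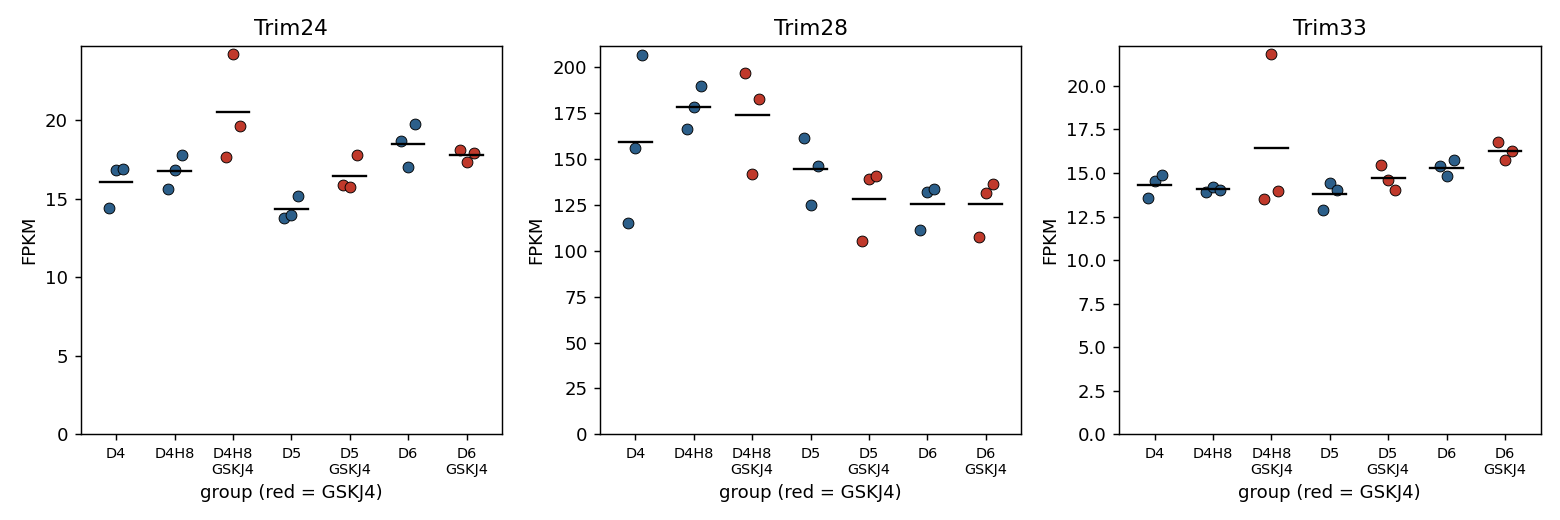
FPKM of Trim24, Trim28 and Trim33 in each library by group, with untreated libraries in blue, GSKJ4 libraries in red and group means as bars, each axis starting at 0. Treated and untreated libraries overlap except for Trim24 at D5 (15.7 to 17.8 against 13.8 to 15.2 FPKM) and Trim33 at D6 (15.8 to 16.8 against 14.8 to 15.7 FPKM), which both overlap in CPM. D4H8_GSKJ4 replicate 2 stands highest for Trim24 (24.2 FPKM) and Trim33 (21.8 FPKM).

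The adjusted p-values of the 9 comparisons ran from 0.421 to 1.00 (edgeR). A p above the threshold does not show that the genes were unaffected, so the intervals are given. The widest upward bound was 0.76 on the log2 scale, or 1.69-fold, for Trim33 at D4H8, and the lowest downward bound was -0.58, or 0.670-fold, for Trim28 at D5. At D6 the upper bounds were 1.12-fold for Trim24, 1.18-fold for Trim28 and 1.23-fold for Trim33. None of the relatives had a stage difference in the GSKJ4 effect that was called, with log2 differences between effects from -0.32 (Trim24, D6 minus D4H8) to 0.23 (Trim28, D6 minus D5), where 0.249% of genes were called for D5 minus D4H8.

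**Figure D3:**
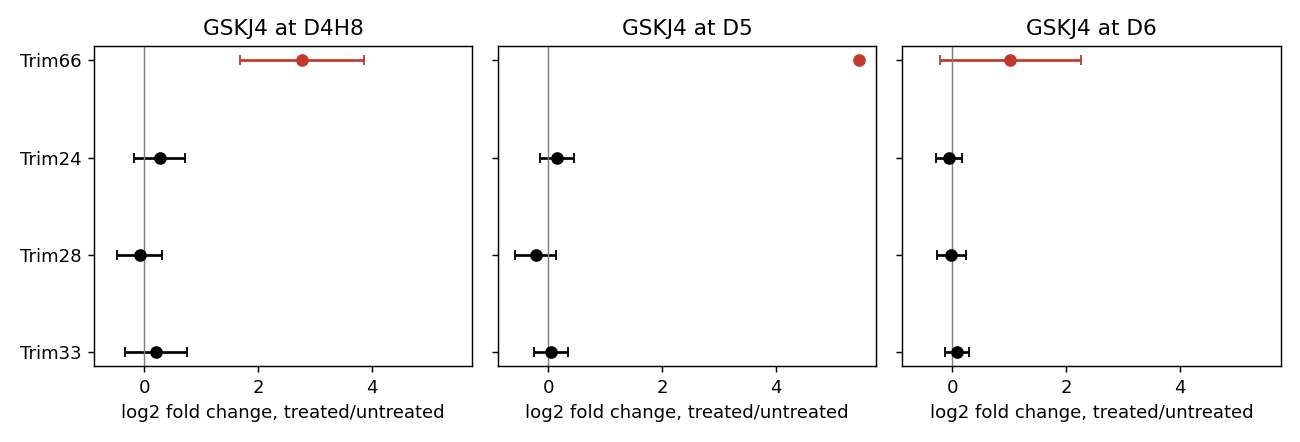
Log2 fold change of GSKJ4-treated over untreated libraries for the 4 genes at each stage, with 95% intervals from edgeR (3 against 3 libraries). Trim66 at D5 is drawn without an interval because its value there chose the genes, and it stands at 5.46 while the intervals of the relatives all reach 0.

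The log2 ratio of Trim66 to each relative within a library is given as a description, with no test, since it was chosen after the values were seen. At D4H8 the treated minus untreated difference in this ratio was 2.26 against Trim24, 2.59 against Trim28 and 2.35 against Trim33. At D6 the differences were 0.92, 0.88 and 0.78. At D4H8 the interval of Trim66 began at 3.22-fold, above the upper ends of the relatives, the highest of which was 1.69-fold, while at D6 the interval of Trim66 held all of their estimates.

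Without inhibitor, Trim66 rose late. From D4 to D6 it increased with a log2 fold change of 3.18 ± 0.53 (SE, 95% interval 2.05 to 4.31, edgeR, adjusted p = 1.18e-04), and passed the filter in the 12 untreated libraries only through D6. It was also called with no filter. Between D4 and D6, 32.9% of 17519 genes were called higher and 63.9% changed in either direction, so a call is common in this contrast. The D4 to D4H8 difference of 1.22 ± 0.56 (SE), with all D4H8 libraries above all D4 libraries as for 15.2% of genes, was not called (edgeR, adjusted p = 0.292, with 4.38% of genes called). From D4H8 to D5 the log2 difference was -0.58 and from D5 to D6 it was 2.54, both given as descriptions since the untreated D5 libraries are part of the values that chose the gene.

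Trim24 was higher at D6 than at D5 (log2 fold change 0.48 ± 0.10 SE, adjusted p = 0.00231 by edgeR), in a step where 19.2% of genes were called higher and 34.3% in either direction. Its FPKM went from 13.8, 14.0 and 15.2 in the D5 libraries to 18.6, 17.0 and 19.7 in the D6 libraries, with no overlap, as for 23.5% of genes that were higher. From D4 to D6 it rose by 0.27 ± 0.10 (SE, adjusted p = 0.0280 by edgeR), but this call was lost in 7 of 12 fits that left out a library (edgeR, adjusted p up to 0.125) and with upper-quartile scaling (log2 fold change 0.12). Trim33 was higher at D6 than at D5 by 0.27 ± 0.09 (SE, adjusted p = 0.0414 by edgeR), with 12.9, 14.4 and 14.0 FPKM at D5 and 15.4, 14.8 and 15.7 FPKM at D6. Leaving out any of the 12 libraries lost that call, with adjusted p-values between 0.0560 and 0.127 (edgeR), and from D4 to D6 Trim33 was not called (log2 fold change 0.16 ± 0.09 SE, adjusted p = 0.143 by edgeR).

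Trim28 was not called in any step between stages. Its D4 libraries had 115, 156 and 206 FPKM and its D6 libraries 111, 132 and 134 FPKM, a D4 to D6 difference of -0.26 ± 0.16 on the log2 scale (SE, adjusted p = 0.161 by edgeR). Without D4 replicate 1 it was -0.45 and called (edgeR, adjusted p = 0.0203). Upper-quartile scaling gave -0.42 and also a call (edgeR, adjusted p = 0.0365), in a contrast whose median over all genes that scaling shifted by -0.15. From D4H8 to D5 every library of Trim24 and of Trim28 was lower, as for 20.9% of genes, by log2 differences of -0.22 ± 0.10 and -0.30 ± 0.16 (SE), and neither was called (edgeR, adjusted p = 0.121 and 0.190, with 27.7% of genes called).

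Across the 21 libraries, which share stages and treatments, log2 CPM of Trim24 and Trim33 had the highest Pearson correlation within the family (r = 0.78). Trim66 had r = 0.30 with Trim24, 0.21 with Trim33 and -0.44 with Trim28. The genes most like Trim66 among 14857 named candidates were Alas1, the first enzyme of heme synthesis (r = 0.86), Decr2, a peroxisomal enzyme of fatty acid oxidation (0.83), Ddit3, the stress-response transcription factor also called CHOP (0.82), Kcnt2, a potassium channel subunit (0.82), and Sprtn, a protease that removes proteins crosslinked to DNA (0.81). All 5 had every treated library above every untreated one at D4H8 and at D5, as 16.1% and 5.19% of genes did. These likenesses rest in part on the treated D5 libraries that chose Trim66. The 5 genes were picked over the same libraries in which they are compared, D4H8 and D5 included. Their overlaps and calls under GSKJ4 are thus not independent of that choice.

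At D4H8, Kcnt2 was called (log2 fold change 1.68 ± 0.37 SE, adjusted p = 0.0432 by edgeR), while Ddit3 (0.94 ± 0.27 SE), Alas1 (0.61 ± 0.18), Sprtn (0.49 ± 0.18) and Decr2 (0.44 ± 0.20) were not. The Kcnt2 call was lost without any of the untreated libraries and without D4H8_GSKJ4 replicate 3 (edgeR, adjusted p between 0.0560 and 0.207). Ddit3 was called at D4H8 by DESeq2 (adjusted p = 0.0189), without a filter (edgeR, adjusted p = 0.0195), with the replicate block (0.0379) and in the fit over 21 libraries (0.00890), and Alas1 and Sprtn in the last of these (0.0198 and 0.0305). Alas1 and Ddit3 were also called without D4H8_GSKJ4 replicate 2 (edgeR, adjusted p = 0.0436 and 0.0295). At D5 their log2 fold changes were 1.45 for Kcnt2, 1.40 for Ddit3, 0.94 for Alas1, 0.48 for Decr2 and 0.32 for Sprtn. None was called by edgeR at D5 or D6, where 0.00613% and 0% of all genes were. At D5 DESeq2 called Ddit3 (adjusted p = 2.47e-06), Alas1 (0.00194) and Kcnt2 (0.00621), and Ddit3 and Alas1 were also called by edgeR without a filter and over 21 libraries. At D6 the largest difference was 0.26, for Ddit3. Of these genes, Decr2 alone shared no exon sequence with another annotated gene. Ddit3 overlapped a second gene model of the same name on its own strand, and Alas1, Kcnt2 and Sprtn overlapped genes on the opposite strand, so their counts are uncertain because the strand setting of the counting is not given in the sources used here. The genes most like Trim24 were Osbpl1a (r = 0.86), Arl8b (0.85) and Slc23a2 (0.85). For Trim28 they were Snd1 (0.91), Sart3 (0.90) and Cpsf1 (0.89), and for Trim33 Bod1l (0.91), Ubr1 (0.89) and Lims1 (0.89).

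The machinery that TIF1 proteins work with was followed in a list of 50 genes, of which 49 were in the table and tested. It includes the HP1 proteins, Setdb1, the NuRD complex, DNA methyltransferases, SUMO pathway genes, KRAB zinc finger proteins, Smads and p53 regulators. Under GSKJ4 1 of the 49 was called higher by edgeR at D4H8, where 2.11% of all genes were, and none lower. The count called was 7 with DESeq2, 8 without a filter, 6 with the replicate block, 8 in the fit over 21 libraries and 0 to 14 when a library was left out, with 0 without any untreated library and 14 without D4H8_GSKJ4 replicate 2. Over all genes the count went from 644 to 1974, 2287, 2274, 2048 and 43 to 1746 under these settings, in that order. None of the 49 was called at D5 or D6, also by DESeq2, and edgeR called only 0.00613% and 0% of all genes there. By edgeR, 3 and 0 of the 49 had an unadjusted p under 0.05, where 4.7% and 1.36% of all genes did. The partner called at D4H8 was Mdm2, the ubiquitin ligase of p53, with a log2 fold change of 1.01 ± 0.19 (SE, adjusted p = 0.0262 by edgeR). That call was lost without any of the untreated D4H8 libraries (edgeR, adjusted p between 0.0904 and 0.160). The median of the list was 0.01 at D4H8, beside 0.02 over all genes.

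By edgeR on the libraries of a stage, the HP1 genes and Setdb1 were not called under GSKJ4. Of all genes, 3.96% were called at D4H8, 0.00613% at D5 and 0% at D6. At D4H8, Cbx1 (HP1β) had a log2 fold change of -0.58 ± 0.18 (SE), Cbx5 (HP1α) -0.30 ± 0.25, Cbx3 (HP1γ) -0.20 ± 0.34 and Setdb1 0.13 ± 0.16. Without D4H8_GSKJ4 replicate 2, Cbx1, Cbx3 and Cbx5 were called lower, with log2 fold changes of -0.68, -0.77 and -0.64 (edgeR, adjusted p = 0.0275, 0.0314 and 0.0231). Cbx1 was also called in the fit over 21 libraries (edgeR, adjusted p = 0.0178). At D5 the values were -0.26 for Cbx1, -0.50 for Cbx3, -0.29 for Cbx5 and -0.12 for Setdb1. At D6 all 4 lay between -0.02 and 0.05.

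From D4 to D6 without inhibitor, 27 of the 49 partner genes fell and 8 rose, with a median log2 fold change of -0.55 beside -0.04 over all genes, in a contrast where 31% of genes were called lower and 32.9% higher. Cbx1 fell by 1.44 ± 0.15 (SE), Cbx5 by 1.02 ± 0.11 and Cbx3 by 0.80 ± 0.21 on the log2 scale (edgeR, adjusted p = 1.42e-06, 1.64e-06 and 0.00441). Setdb1 had -0.06 ± 0.10 (SE, adjusted p = 0.619 by edgeR). The largest called changes among the rest were in Atf7ip2, a relative of the Setdb1 cofactor Atf7ip (-2.70 ± 0.61 SE), in Uhrf1, which keeps DNA methylation through replication (-2.57 ± 0.30), and in the de novo DNA methyltransferase Dnmt3b (-2.47 ± 0.27). Zfp57, a KRAB zinc finger protein that brings Trim28 to imprinted regions, rose by 2.36 ± 0.14 (SE, adjusted p = 6.11e-09 by edgeR).

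The wider Trim family had 64 further named genes in the table, of which 41 were tested at D4H8 and D5 and 38 at D6. At D4H8 the ubiquitin ligase Trim6 was called higher (log2 fold change 1.27 ± 0.28 SE, adjusted p = 0.0404 by edgeR) and Trim9, a neuronal regulator of axon branching, lower (-2.30 ± 0.48 SE, adjusted p = 0.0366 by edgeR), where 1.85% of genes were called lower. None was called at D5 or D6 by edgeR or DESeq2, and edgeR called only 0.00613% and 0% of all genes there. By edgeR, 0 of these Trim genes had an unadjusted p under 0.05, where 4.7% and 1.36% of all genes did. Both D4H8 calls were lost when any untreated library was left out and without D4H8_GSKJ4 replicate 3 (edgeR, adjusted p = 0.0770 for Trim6 and 0.0612 for Trim9). Trim9 was also lost without D4H8_GSKJ4 replicate 2 (0.0501) and Trim6 in the fit over all 21 libraries (edgeR, adjusted p = 0.0963). The 2 called Trim genes at D4H8 became 11 with DESeq2, 11 with the replicate block, 8 without a filter and 0 to 3 when a library was left out. Over all genes the count went from 644 to 1974, 2274, 2287 and 43 to 1746 under these settings, in that order. At an unadjusted p under 0.05 by edgeR, 12 of the 41 were higher and 2 lower at D4H8, where 14.1% and 11% of all genes were. The median log2 fold change of the list at D4H8 was 0.25, beside 0.02 over all genes. The values of the list ran up to 1.94 at D4H8, 1.29 at D5 and 0.63 at D6.

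**Figure D4:**
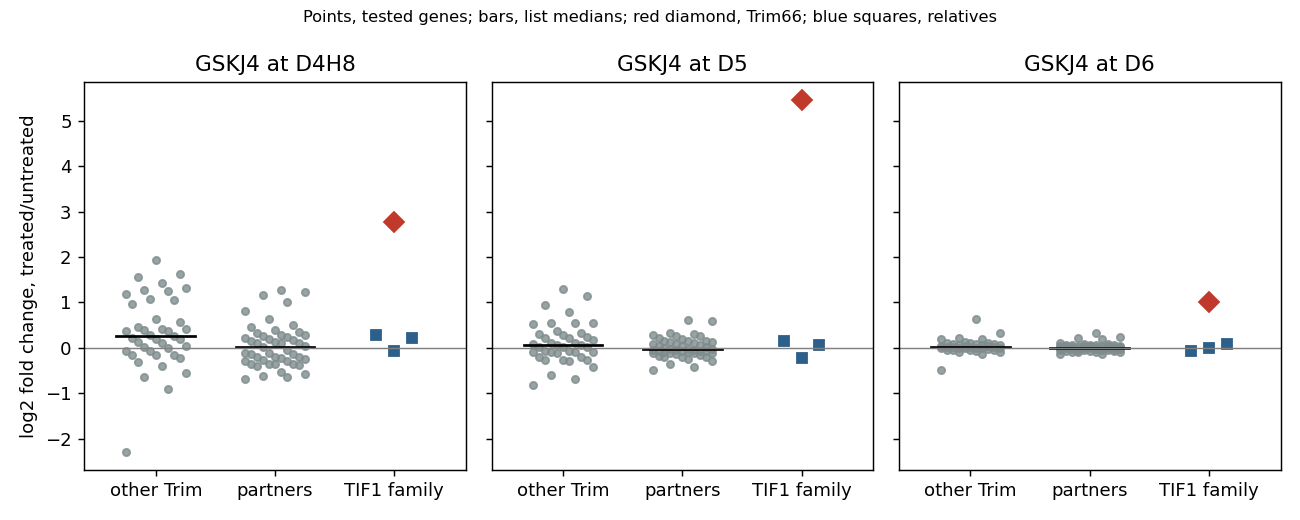
Log2 fold change under GSKJ4 at each stage for the tested genes of the other Trim list and of the TIF1 partner list (grey points, bars at the medians), with Trim24, Trim28 and Trim33 as blue squares and Trim66 as a red diamond. Trim66 is drawn at 2.77, 5.46 and 1.02, of which the D5 value chose the genes and the D6 value was not called, and the other Trim genes reach 1.94, 1.29 and 0.63.

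From D4 to D6 without inhibitor, 17 of 44 tested Trim genes rose and 11 fell, beside 32.9% and 31% of all genes. Trim67, a close relative of Trim9, rose by 8.73 ± 0.36 (SE) on the log2 scale, Trim36 by 4.86 ± 0.25 and Trim46, which bundles microtubules in the axon, by 4.34 ± 0.23 (edgeR, adjusted p = 3.30e-10, 1.48e-09 and 2.22e-09). The largest falls were in Trim54 (-2.75 ± 0.76 SE), in Trim21, the cytosolic antibody receptor (-2.45 ± 0.38), and in Trim56 (-2.08 ± 0.23).

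The chromosomal neighbours of Trim66 were not called under GSKJ4 at any stage at which they were tested. Of all genes, 3.96% were called at D4H8, 0.00613% at D5 and 0% at D6. The nearest starts belonged to Rpl27a, a ribosomal protein gene, 11013 bases from the Trim66 start, and on the other side to Stk33, a kinase gene, and 1700095J03Rik, at signed distances of -69053 and -69516 bases. St5 followed at 195471 bases. At D4H8, Rpl27a had a log2 fold change of -0.71 ± 0.24 (SE, adjusted p = 0.117 by edgeR), Stk33 -0.81 ± 0.46 (edgeR, adjusted p = 0.302) and St5 0.11 ± 0.24 (edgeR, adjusted p = 0.803), and 1700095J03Rik did not pass the filter. At D5 Stk33 had 0.89 ± 0.65, St5 0.34 ± 0.24, 1700095J03Rik -0.17 ± 1.22 and Rpl27a -0.18 ± 0.16 (SE), and at D6 the values were 0.16, 0.16, -0.60 and 0.06. Without a filter on low counts, Rpl27a was called lower at D4H8 (log2 fold change -0.72, edgeR, adjusted p = 0.0200). No annotated gene overlapped Trim66 or Trim24. The span of Trim28 held Zbtb45 on the opposite strand and that of Trim33 held Gm43061 on the same strand, neither sharing exon sequence with the member. Their counts ranged from 182 to 809 and from 0 to 14 per library.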

How the data were processed

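Poly-A RNA of 21 libraries was sequenced. By the authors' account, Fastp trimmed the reads, HISAT2 placed them on mm10, and SAMtools and HTSeq sorted and counted them per gene. The deposited table of raw counts holds whole-number counts per gene. The deposited FPKM values are those counts divided by exonic length and library total, and recomputed values differed by at most 0.005. The strand setting of the counting is not given in the sources used here.

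Symbols were matched for 55140 of 55400 gene identifiers. Counts were scaled by TMM and filtered with filterByExpr (minimum count 10), and tested with the edgeR 4.0.16 quasi-likelihood test under R 4.3.3 with Benjamini-Hochberg adjustment over all tested genes (threshold 0.05). GSKJ4 contrasts used the 6 libraries of a stage, stage contrasts the 12 untreated libraries, and differences between stages the 18 libraries of D4H8, D5 and D6. The standard error is the log2 fold change over the root of the F statistic, and the interval uses the moderated degrees of freedom. Log2 CPM used a prior count of 2. The script was tested on simulated data.

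The members and the lists were chosen with earlier results of these data known. Named genes are the members, the 5 genes most like Trim66 and 3 most like each relative, Cbx1, Cbx3, Cbx5 and Setdb1, up to 4 further called partners, up to 3 raised and 3 lowered Trim genes per contrast, and the 2 nearest tested genes on each side of Trim66. These called genes are named for the GSKJ4 contrasts and for D4 to D6. Same-numbered libraries deviated together at D6 (r = 0.75, 0.43 and 0.57), so those numbers were taken as pairs. At D4H8 (0.49, 0.09 and 0.30), at D5 (0.25, 0.06 and 0.23) and among untreated stages (-0.02 to 0.40) they were not taken as pairs. These correlations do not settle whether the numbers pair libraries there, since some reach the lowest value at D6. DESeq2 1.42.0, RLE and upper-quartile scaling, other filters, a replicate block, a fit over all 21 libraries and leaving out each library were alternatives. Protein sequences were not used here.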

Additional observations from a re-analysis of the deposited data

How the results depend on the processing

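Of 1676 values under alternative settings, 1511 kept their direction and their side of the threshold, or stayed near the main value. Trim24, Trim28 and Trim33 were called under GSKJ4 in none of the alternatives run. Trim66 kept its call at D4H8 except without each untreated library in turn (log2 fold change 2.55 to 3.11 over all 6 fits that leave out a library, so 0 to 1 members were called) and with at least 10 counts in every library, where it was not tested and 0 members were called. The count of genes called at D4H8 under GSKJ4 went from 644 to 1974 with DESeq2, 2287 without a filter, 2274 with the replicate block, 2048 in one fit over 21 libraries and 43 to 1746 when a library was left out (43 without D4H8 replicate 1 and 1746 without D4H8_GSKJ4 replicate 2). At D5 it went from 1 to 69, 128, 4, 9 and 1 to 6 under the same settings in that order. At D6 it went from 0 to 1 with DESeq2 and 257 with the replicate block. From D4 to D4H8 it went from 767 to 1319 without a filter, 422 in the fit over 21 libraries and 350 to 912 when a library was left out. From D4H8 to D5 it went from 4861 to 3218 in the fit over 21 libraries. For differences between GSKJ4 effects, D5 minus D4H8 went from 45 to 236 with DESeq2 and 321 with the replicate block, D6 minus D4H8 from 133 to 580 and 880, and D6 minus D5 from 0 to 1 with DESeq2. Whether the replicate numbers pair libraries at D5 and D4H8 is not settled, and the block changed no call of a member in any contrast.

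From D4 to D6, 2 members were called, where 63.9% of all genes were. It was 1 without a filter, 1 in the fit over 21 libraries and 1 to 2 when a library was left out. Of the 3 relatives, 2 were called from D5 to D6, where 34.3% of all genes were. It was 1 with upper-quartile scaling, without a filter, in the fit over 21 libraries, and whenever a library was left out (1 to 1). In CPM in place of FPKM, 5 of 7 groups kept their rank of mean level for Trim24, 4 for Trim28 and 2 for Trim33. The cause of these shifts was not tested.

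A sign changed for 16 of the 130 results, none of them called, mostly by leaving out a library. With upper-quartile scaling Trim24 from D4 to D4H8 was -0.020 (-0.017 to 0.038 when a library was left out). The other ranges when a library was left out were, for GSKJ4 at D4H8, -0.13 to 0.35 for Trim33, -0.77 to 0.079 for Cbx3 and -0.14 to 0.30 for St5. At D5 they were -0.018 to 0.10 for Trim33, -0.23 to 0.0060 for Setdb1 and -0.67 to 0.41 for 1700095J03Rik. At D6 they were -0.066 to 0.057 for Trim28, -0.032 to 0.10 for Sprtn, -0.041 to 0.15 for Cbx1, -0.060 to 0.024 for Cbx3, -0.29 to 1.17 for Stk33, -0.049 to 0.21 for Rpl27a and -0.031 to 0.39 for St5. For the stages they were -0.11 to 0.0018 for Trim33 from D4H8 to D5 and -0.21 to 0.020 for Trim28 from D5 to D6. At 2 to 14 counts per untreated library before D6, the depth limits how closely the low levels of Trim66 can be ordered.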

Other observations

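Since Trim66 is best known from the testis, a list of 26 germ cell genes was followed beside it. Of the 21 tested at D4H8, edgeR called 0 under GSKJ4 after adjustment, and 9 were higher and 1 lower at an unadjusted p under 0.05, where 14.1% and 11% of all genes were. Their median log2 fold change was 1.24, beside 0.02 over all genes. Their summed level was 764 to 868 CPM in the untreated D4 libraries. At D4H8 it was 981 to 1537 CPM in the treated and 228 to 639 CPM in the untreated libraries, mostly from Stra8. Stra8, a retinoic acid response gene of meiotic entry, averaged 1099 CPM in the treated and 404 CPM in the untreated libraries, a log2 difference of 1.45 ± 0.38 (SE, adjusted p = 0.0643 by edgeR), and Dazl, an RNA-binding protein of germ cells, had 1.66 ± 0.55 (SE, adjusted p = 0.107 by edgeR). Both genes were chosen after their values were seen. At D5, where Trim66 stood highest, none of 22 tested germ cell genes was called by edgeR, where 0.00613% of all genes were. By edgeR, 1 had an unadjusted p under 0.05, where 4.7% of all genes did. The median of the list was 0.39 and the sums overlapped, with 250 to 763 CPM treated and 214 to 499 CPM untreated.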
